A study of Sus scrofa with 9 samples.

Results

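The 4 genes described here act in the cycling of calcium through the sarcoplasmic reticulum of heart muscle cells: ATP2A2, PLN, CAMK2D and PDE3A. They were chosen by symbol, by matching the RefSeq transcript of each listed position to its pig gene name, a rule that uses no measured value, although the 4 were picked with earlier results of these data known. They take up 5 of the 4882 positions in the deposited table, because ATP2A2 is listed at 2 of them, and the position with the longest span stands for that gene. All 5 positions passed the filter on low values that 2384 positions passed. The samples came from 3 female farm pigs whose left anterior descending coronary artery had been closed distally with a coil, and the heart was sampled after 24 hours. Each pig gave 1 sample of ischemic myocardium, 1 of the border zone around it and 1 of healthy myocardium, which makes 3 groups of 3 libraries. The healthy samples come from the same infarcted hearts, so every group shares the occlusion and its 24 hours, and no heart without a coil was analysed here. The assay was GRO-seq, in which nuclei extend their engaged RNA polymerases for 5 minutes with a labelled nucleotide, so a value is nascent transcription and not the amount of mRNA or protein. The nuclei came from cells released from minced tissue by collagenase, and the mixture of cell types was not sorted.

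Contraction starts when calcium leaves the sarcoplasmic reticulum, and relaxation follows as the calcium pump SERCA2, encoded by ATP2A2, returns it to the store. Phospholamban, the small membrane protein encoded by PLN, holds the pump back until it is phosphorylated by protein kinase A or by calcium/calmodulin-dependent kinase II, whose main cardiac form is encoded by CAMK2D. PDE3A encodes a phosphodiesterase that breaks down cAMP near the sarcoplasmic reticulum and so limits the kinase A signal that reaches phospholamban. Reduced SERCA2 activity relative to phospholamban is a known feature of failing heart muscle.

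All 4 genes were transcribed least in ischemic myocardium, at intermediate levels in the border zone and most in healthy myocardium, and the 3 zones did not overlap for any of them. Mean levels in ischemic myocardium were 11.4% of the healthy mean for PDE3A, 15.8% for PLN, 18.5% for ATP2A2 and 21.6% for CAMK2D. Border zone means were 41.5% of the healthy mean for PDE3A, 43.6% for PLN, 48.0% for ATP2A2 and 58.7% for CAMK2D. Of the 2384 positions tested, 3.23% had all ischemic libraries below all border zone libraries and all of these below all healthy libraries.

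The table gives ATP2A2 as NM_213865 on chromosome 14 of the susScr3 build, from 33446619 to 33491489 on the minus strand. That span of 44.9 kb holds 1100 bp of exons, and the level is counted over the whole span, introns included, as RPKM, reads scaled to span length and library total. ATP2A2 had 3.33, 6.21 and 3.15 RPKM in the ischemic samples of pigs 1, 2 and 3, against 7.81, 14.8 and 10.3 RPKM in the border zone samples and 18.0, 25.3 and 25.5 RPKM in the healthy samples. The highest ischemic value, that of pig 2, lies below the lowest border zone value, that of pig 1, and all border zone values lie below all healthy ones. The means were 4.23 ± 1.72 RPKM in ischemic, 11.0 ± 3.55 in border zone and 22.9 ± 4.25 in healthy myocardium (SD, n = 3 each).

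A second position of the same transcript is listed on chromosome 14 from 33642902 to 33670781, on the plus strand, 151.4 kb away, although the newer pig assembly Sscrofa11.1 holds 1 ATP2A2 gene. It spans 27.9 kb with 2520 bp of exons. This position had 1.92, 3.58 and 2.15 RPKM in ischemic samples 1 to 3, against 4.62, 9.18 and 5.97 RPKM in the border zone and 11.1, 14.0 and 11.9 RPKM in healthy myocardium. Its zones are ordered and separated as at the longer position, at a lower level in each of the 9 libraries. Whether the counting used strand is unknown here, so whether 1 or both of the 2 positions carry the gene in this build cannot be told.

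PLN, the gene of the pump's inhibitor, is listed as NM_214213 on chromosome 1 from 48678936 to 48688510, minus strand, a span of 9.57 kb with 732 bp of exons. PLN had 4.06, 14.6 and 4.85 RPKM in the ischemic samples of pigs 1, 2 and 3, against 17.4, 26.6 and 20.6 RPKM in the border zone and 52.9, 40.2 and 55.2 RPKM in healthy myocardium. The ischemic sample of pig 2 stands well above the other ischemic samples and still lies below every border zone sample. The mean was 7.82 ± 5.85 RPKM in ischemic, 21.5 ± 4.71 in border zone and 49.4 ± 8.06 in healthy myocardium (SD, n = 3 each), so PLN had the widest relative spread of the 4 genes in the ischemic zone. Its ischemic values rest on 83, 159 and 41 reads, the fewest of the 4 genes.

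CAMK2D, the kinase gene, is listed as NM_214381 on chromosome 8 from 116955005 to 117260330, plus strand, a span of 305.3 kb with 2268 bp of exons. It had 1.01, 1.98 and 1.11 RPKM in the ischemic samples of pigs 1, 2 and 3, against 2.86, 5.00 and 3.28 RPKM in the border zone and 5.86, 6.47 and 6.64 RPKM in healthy myocardium. The healthy values lie closest together of the 4 genes, and the border zone sample of pig 2 comes nearest to them. Means were 1.37 ± 0.534 RPKM in ischemic, 3.71 ± 1.14 in border zone and 6.32 ± 0.410 in healthy myocardium (SD, n = 3 each).

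PDE3A, the phosphodiesterase gene, is listed as NM_213736 on chromosome 5 from 55777634 to 55969591, minus strand, a span of 192.0 kb with 545 bp of exons. PDE3A had 1.01, 2.08 and 1.03 RPKM in ischemic samples 1 to 3, against 4.34, 6.19 and 4.50 RPKM in the border zone and 12.7, 13.3 and 10.2 RPKM in healthy myocardium. No ischemic sample reached the level of any border zone sample, and the gaps between zones are wide beside the spread within them. The mean was 1.37 ± 0.612 RPKM in ischemic, 5.01 ± 1.02 in border zone and 12.1 ± 1.67 in healthy myocardium (SD, n = 3 each). No other listed position overlaps the span of any of the 4 genes.

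**Figure D1:**
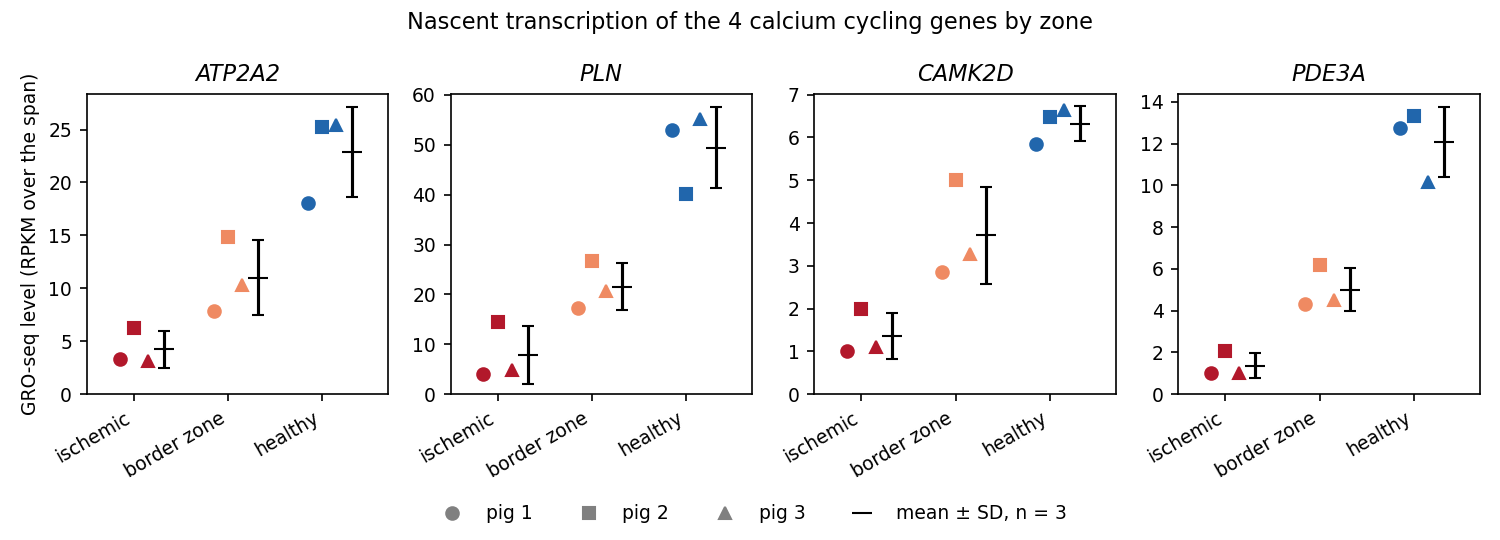
Nascent transcription of the 4 genes in each library, in RPKM over the annotated span, with ischemic, border zone and healthy samples from left to right; points are libraries, their shape marks the pig, and lines with bars are means with SD (n = 3). In every panel the 3 zones are separated, as for PDE3A with 1.01 to 2.08, 4.34 to 6.19 and 10.2 to 13.3 RPKM, and pig 2 has the highest ischemic and border zone value.

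Library totals were 883656 to 2134087 reads in ischemic, 2187977 to 7005976 in border zone and 2730083 to 6531658 in healthy samples. A position of the 4 genes held 41 to 690 reads in the ischemic libraries, 364 to 10703 in those of the border zone and 845 to 13233 in the healthy ones, so the ischemic values carry the largest counting error. The 5 positions together took 0.0744%, 0.152% and 0.0783% of all reads in ischemic libraries 1 to 3, against 0.235%, 0.389% and 0.269% in the border zone and 0.586%, 0.644% and 0.598% in healthy myocardium. In limma across all positions, 442 of 2384 were higher and 217 lower in ischemic than in healthy myocardium, with a median log2 difference of 0.21. After scaling each library to its median the split was 337 higher and 297 lower with a median of 0.00, and after quantile normalization it was 249 and 251. A decrease of the 4 genes thus stands against a median that lies slightly above 0.

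In ischemic against healthy myocardium all 4 genes fell, each in 3 of 3 pigs and each past an adjusted p of 0.05 in limma on log2(RPKM + 0.1), a scale that slightly understates the change of low values. At this threshold 9.10% of the 2384 positions were lower, and 14.9% had all ischemic libraries below all healthy ones. The pump gene ATP2A2 was 5.51-fold lower (95% interval 3.14 to 9.64), a log2 difference of -2.46 ± 0.35 (SE) with an adjusted p of 0.00258. Within pigs 1, 2 and 3 the log2 ratio of ischemic to healthy myocardium was -2.40, -2.01 and -2.97 for ATP2A2. The second ATP2A2 position fell by 2.28 ± 0.33 on the log2 scale, with an adjusted p of 0.00264. PLN was 7.31-fold lower (3.50 to 15.3), a log2 difference of -2.87 ± 0.46 with an adjusted p of 0.00378. Its decrease varied most among pigs, with log2 ratios of -3.67, -1.46 and -3.48, and was smallest in pig 2. CAMK2D was 4.56-fold lower (2.80 to 7.42), a log2 difference of -2.19 ± 0.31 with an adjusted p of 0.0025. PDE3A was 8.66-fold lower (5.28 to 14.2), a log2 difference of -3.11 ± 0.31 with an adjusted p of 0.00063. Within pigs 1, 2 and 3 its log2 ratio was -3.53, -2.62 and -3.19. The intervals of the 4 genes overlap, and their differences from each other were not tested.

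In border zone against healthy myocardium the same 4 genes were lower in 3 of 3 pigs and without overlap, which held for 6.71% of all positions, but none of the 4 passed the adjusted threshold in limma. All 4 had an unadjusted p under 0.05, as did 21.4% of all positions, and 0.210% of positions were called lower. PDE3A was 2.40-fold lower (1.46 to 3.93), a log2 difference of -1.26 ± 0.31 with an adjusted p of 0.0561. ATP2A2 was 2.12-fold lower (1.21 to 3.71), a log2 difference of -1.08 ± 0.35 with an adjusted p of 0.124. With the pig as a replicate block the adjusted p was 0.0234 for PDE3A and 0.0447 for ATP2A2, which brings both past the threshold. PLN was 2.30-fold lower (1.10 to 4.81) with an adjusted p of 0.188, and CAMK2D was 1.73-fold lower (1.06 to 2.82) with an adjusted p of 0.189. With limma-voom on the read numbers recovered from the table, ATP2A2, PLN and PDE3A passed at adjusted p-values of 0.0194, 0.015 and 0.00691, and CAMK2D did not, at 0.0703. Within pigs 1, 2 and 3 the log2 ratio of border zone to healthy myocardium was -1.19, -0.77 and -1.29 for ATP2A2, -1.60, -0.59 and -1.41 for PLN, -1.01, -0.37 and -0.99 for CAMK2D and -1.53, -1.09 and -1.16 for PDE3A. Each of the 4 genes was thus nearest to its healthy level in pig 2.

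In ischemic against border zone myocardium all 4 genes were again lower in 3 of 3 pigs and without overlap, as were 11.5% of all positions. PDE3A fell past the threshold in limma, as did 0.965% of all positions, by 3.62-fold (2.20 to 5.93), a log2 difference of -1.85 ± 0.31 with an adjusted p of 0.0448. That call lies close to the threshold: leaving out a single library raised the adjusted p to between 0.0696 and 0.172 for 8 of the 9 libraries, ischemic 1 and 3 and all border zone and healthy libraries, and gave 0.013 without ischemic replicate 2. CAMK2D was 2.63-fold lower (1.62 to 4.29) with an adjusted p of 0.0857, ATP2A2 was 2.60-fold lower (1.48 to 4.55) with an adjusted p of 0.115, and PLN was 3.18-fold lower (1.52 to 6.63) with an adjusted p of 0.139. Without ischemic replicate 2 the adjusted p was 0.0384 for CAMK2D and 0.0171 for PLN, and with limma-voom it was 0.0126 for CAMK2D, 0.0205 for ATP2A2 and 0.0199 for PLN. The comparisons share libraries, so they are not separate evidence.

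**Figure D2:**
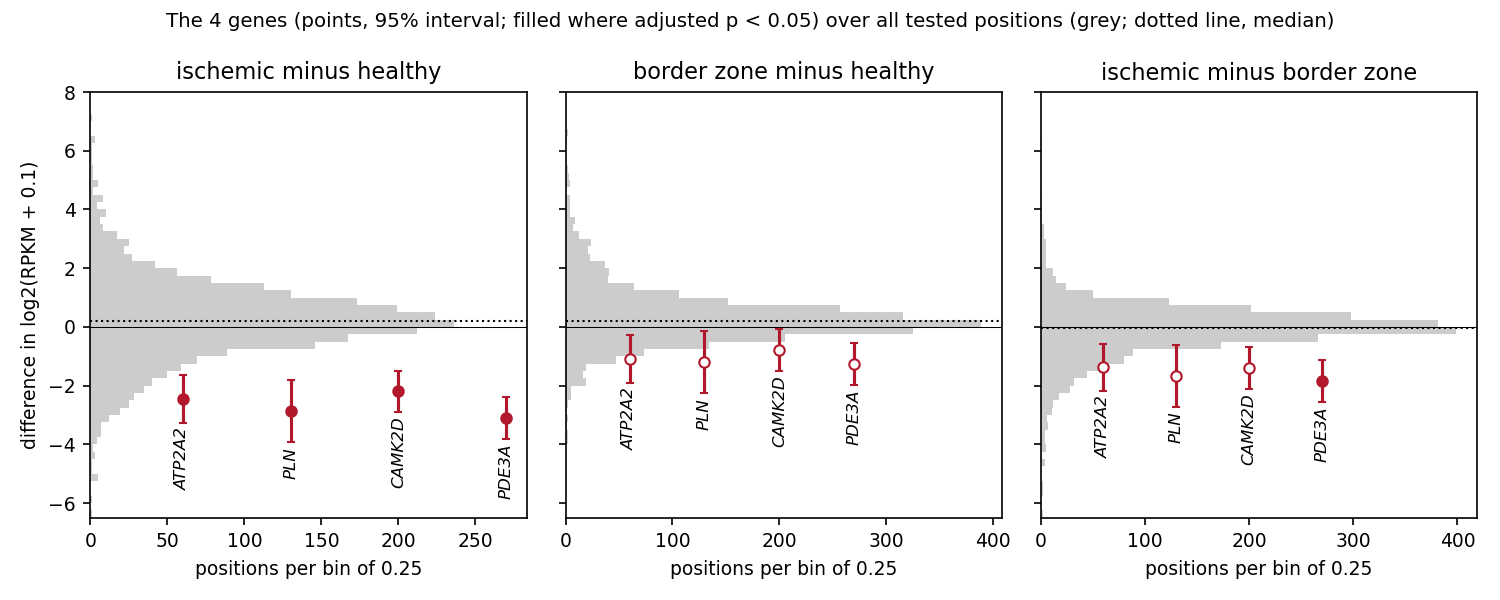
Differences of the 4 genes in log2(RPKM + 0.1) from limma (points with 95% intervals, filled where the adjusted p passed 0.05; vertical axis) for all 3 pairs of zones, over a grey histogram of all 2384 positions tested (horizontal axis, positions per bin of 0.25) with its median dotted. The points are spread sideways for legibility only. Every estimate is below 0, and the differences of ischemic from healthy myocardium, from -3.11 for PDE3A to -2.19 for CAMK2D, exceed those of the border zone from healthy myocardium, from -1.26 for PDE3A to -0.79 for CAMK2D.

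In levels scaled to span length, the order was PLN, ATP2A2, PDE3A and CAMK2D from highest to lowest in healthy myocardium. The spans differ from 9.57 to 305.3 kb, and their effect on this order was not tested. With ATP2A2 at its longer position, neighbours did not overlap. Its second position, at 11.1, 14.0 and 11.9 RPKM in healthy samples 1 to 3, overlapped PDE3A at 12.7, 13.3 and 10.2 RPKM. Ranks, ranges and ratios of ATP2A2 below are those of the longer position. Among the 2384 positions the healthy means ranked 19 for PLN, 46 for ATP2A2, 99 for PDE3A and 217 for CAMK2D, counted from the highest. In the border zone the ranks were 62, 138, 317 and 430 in the same order of genes, and the ranges of PDE3A and CAMK2D overlapped. In ischemic myocardium they were 237 for PLN, 424 for ATP2A2, 1255 for PDE3A and 1260 for CAMK2D. There the ranges of PLN and ATP2A2 overlapped, although PLN was higher in each library, and PDE3A and CAMK2D had the same mean of 1.37 RPKM.

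Relative to CAMK2D and to ATP2A2, PDE3A was lowest in the ischemic samples. PDE3A stood at 1.00, 1.05 and 0.926 times the level of CAMK2D in ischemic samples 1 to 3, against 1.52, 1.24 and 1.37 times in the border zone and 2.17, 2.06 and 1.53 times in healthy myocardium. In these ratios the library total cancels. The ischemic samples lie below all others, and the highest border zone ratio, in pig 1, nearly reaches the lowest healthy one, in pig 3. Relative to the pump gene, PDE3A stood at 0.303, 0.334 and 0.325 times the ATP2A2 level in ischemic samples, against 0.556, 0.417 and 0.436 times in the border zone and 0.707, 0.527 and 0.399 times in healthy samples, where the last 2 zones overlap. The ratio of inhibitor to pump, PLN to ATP2A2, was 1.22, 2.34 and 1.54 in ischemic samples, against 2.22, 1.80 and 2.00 in the border zone and 2.94, 1.59 and 2.17 in healthy samples. For that ratio the 3 zones overlap. CAMK2D stood at 0.303, 0.319 and 0.352 times the ATP2A2 level in ischemic samples, against 0.366, 0.337 and 0.318 times in the border zone and 0.325, 0.256 and 0.261 times in healthy samples, again with overlap. These ratios are given as a description, with no test.

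Markers of heart muscle cells were in sum lower in ischemic than in healthy myocardium, as the 4 genes were. The table holds 12 of 17 such markers, among them the myosin gene MYH7, the troponin gene TNNT2 and the Z-disc gene ACTN2, and none was at 0 in any library. Their summed level was 139 to 335 RPKM in ischemic, 251 to 389 in border zone and 442 to 775 in healthy samples, with the highest ischemic and border zone sum in pig 2, as for the 4 genes. Unlike the levels of the 4 genes, the sums of ischemic and border zone samples overlap. In limma 8 of the 12 fell and none rose in ischemic against healthy myocardium, with a median log2 difference of -1.81, beside 9.10% of all positions called lower and 18.5% called higher. Leaving out a single library lowered that count to 3 without ischemic 1, ischemic 3, healthy 1 or healthy 3, to 4 without healthy 2 and to 5 without any border zone library, and raised it to 10 without ischemic 2. In border zone against healthy myocardium 0 of the 12 passed in limma, with 6 lower at an unadjusted p under 0.05, beside 21.4% of all positions in either direction, and a median of -0.94. By limma-voom 5 of the 12 were lower, as were 39 of the 2384 positions. In ischemic against border zone myocardium all 12 had negative log2 differences, with a median of -0.92. In limma 2 of them passed, ACTN2 and CSRP3, beside 0.965% of all positions called lower, and the alternatives gave 0 to 3. At an unadjusted p under 0.05 4 were lower, beside 15.6% of all positions in either direction. MYH7 and TCAP differed there by -0.24 and -0.18 and did not pass. In these bulk samples fewer heart muscle cells and less transcription per cell cannot be told apart.

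Set against the mean log2 level of the 12 muscle markers in the same library, the ischemic samples lay apart for PDE3A and PLN only. This split is by range alone. It does not separate PLN from ATP2A2, whose ratio to each other overlapped between all zones. The mean also joins markers that differ among themselves. In ischemic against healthy myocardium their log2 differences in limma ran from -0.52 for DES to -2.97 for ACTN2 and CSRP3. Beside these, PDE3A was at -3.11 and PLN at -2.87, and levels against single markers were not compared. PDE3A stood at -2.55, -2.81 and -2.26 log2 units relative to the marker mean in ischemic samples 1 to 3, against -1.67, -1.85 and -1.58 in the border zone and -1.59, -1.03 and -1.27 in healthy samples. PLN stood at -0.64, -0.06 and -0.13 in ischemic samples, against 0.30, 0.24 and 0.59 in the border zone and 0.46, 0.55 and 1.15 in healthy samples. For both genes every ischemic sample lies below every border zone and healthy sample. ATP2A2 stood at -0.92, -1.28 and -0.73 in ischemic samples, against -0.84, -0.60 and -0.40 in the border zone and -1.09, -0.11 and 0.04 in healthy samples. CAMK2D stood at -2.55, -2.88 and -2.16 in ischemic samples, against -2.26, -2.15 and -2.02 in the border zone and -2.69, -2.06 and -1.88 in healthy samples. For these the zones overlap, and healthy sample 1, which has the highest muscle marker mean, lies among the ischemic values for both. The differences are values without a test.

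**Figure D3:**
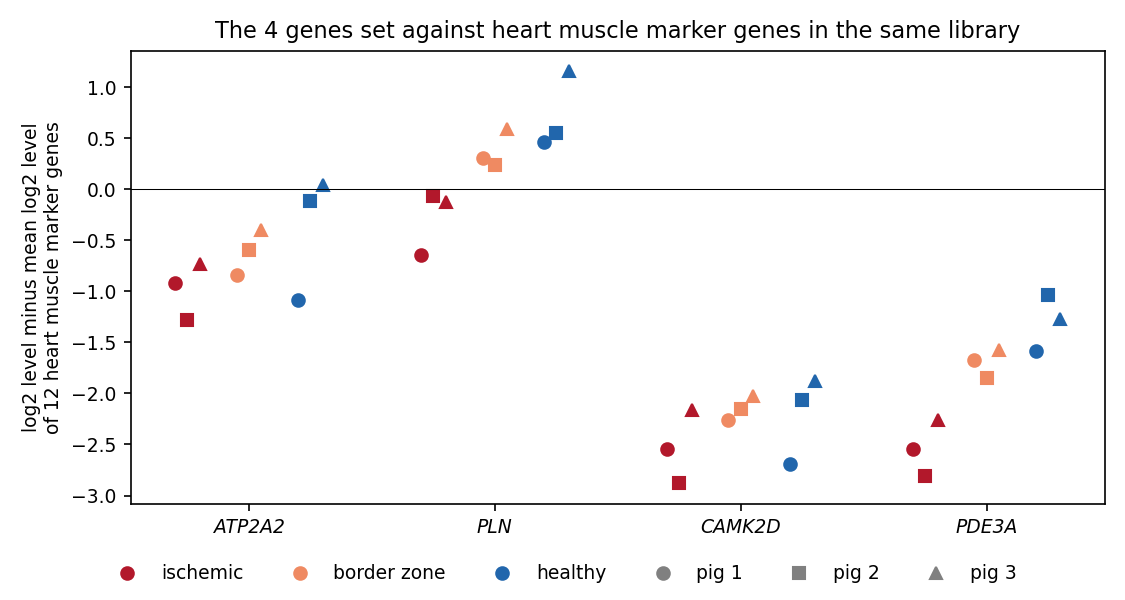
Log2 level of each of the 4 genes minus the mean log2 level of 12 heart muscle markers in the same library, for ischemic, border zone and healthy samples from left to right; points are libraries, and their shape marks the pig. The ischemic samples lie below all others for PLN and PDE3A, while for ATP2A2 and CAMK2D the zones overlap.

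Markers of immune cells were highest where the 4 genes were lowest. Summed levels of 6 macrophage and monocyte genes were 23.9 to 27.1 RPKM in ischemic, 11.5 to 22.0 in border zone and 2.84 to 7.03 in healthy samples, with 1 of the 6, CD163, at 0 in all 9 libraries. For 5 neutrophil genes the sums were 14.1 to 30.4 RPKM in ischemic, 5.28 to 10.9 in border zone and 0.0813 to 0.323 in healthy samples, and S100A8, S100A9 and S100A12 were at 0 in every healthy library. Endothelial markers, 4 genes, summed to 12.6 to 29.2 RPKM in ischemic, 6.96 to 16.0 in border zone and 5.68 to 7.89 in healthy samples. A large part is CLDN5, at 20.5, 5.90 and 11.4 RPKM in ischemic samples 1 to 3, on only 39, 6 and 9 reads. In healthy samples CLDN5 rests on 8, 6 and 8 reads. PECAM1 averaged 4.43 RPKM in ischemic and 2.60 in healthy samples. Fibroblast markers, 5 genes, summed to 12.2 to 16.7 RPKM in ischemic, 10.4 to 12.7 in border zone and 8.46 to 11.6 in healthy samples, where neighbouring zones overlap. Smooth muscle and pericyte markers, 5 genes, summed to 25.1 to 41.6 RPKM in ischemic, 42.0 to 53.4 in border zone and 41.0 to 48.3 in healthy samples. Most of each sum is DES, which is also a heart muscle marker. DES alone had 20.6, 37.1 and 32.3 RPKM in ischemic samples 1 to 3, against 42.1, 38.6 and 45.2 RPKM in healthy samples. TAGLN, the 1 tested gene of this list that rose in limma, averaged 2.75 RPKM in ischemic and 0.991 in healthy samples. In limma for ischemic against healthy myocardium some tested genes of each list rose, beside 18.5% of all positions. These were 4 of 5 macrophage, 3 of 4 neutrophil, 2 of 4 endothelial, 2 of 5 fibroblast and 1 of 3 smooth muscle genes. No gene of these 5 lists passed as lower, as 9.10% of all positions did. The fibroblast genes DCN and LUM and the gene DES had negative log2 differences of -0.57, -0.63 and -0.52 that did not pass. Their adjusted p-values were 0.241, 0.338 and 0.196. The share of these cell types in the decrease of the 4 genes was not tested.

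**Figure D4:**
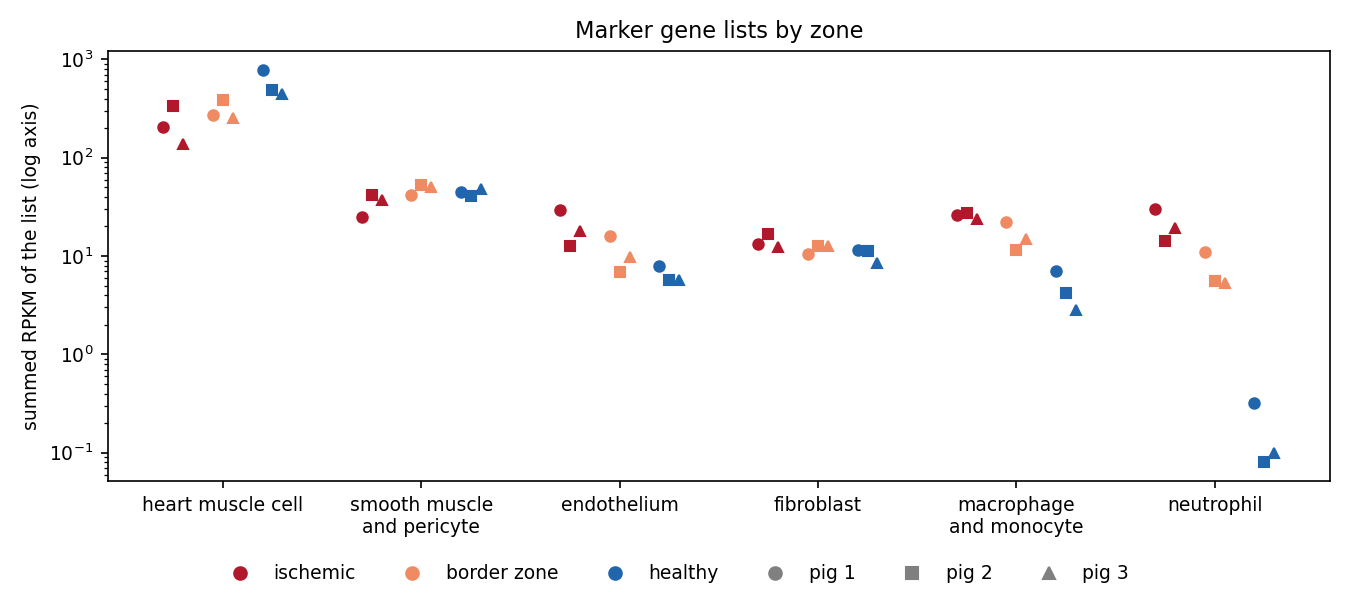
Summed level in RPKM (log axis) of each list of cell type markers in each library, for ischemic, border zone and healthy samples from left to right within each list, with the pig marked by shape. Heart muscle markers stand at 139 to 335 RPKM in ischemic samples, against 442 to 775 in healthy samples, and macrophage and neutrophil markers are highest in ischemic samples.

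The genes around the 4 in the same pathway did not all move in the same direction. Of 100 genes listed for the pathway 35 are in the table and 23 passed the filter on low values, and of these 23 in ischemic against healthy myocardium 5 fell and 2 rose in limma, beside 9.10% and 18.5% of all positions. Their median log2 difference was -0.39, against 0.21 over all positions tested. With the pig as a replicate block 6 fell and 5 rose, where 245 of the 2384 positions fell and 507 rose. That fit added SRI, GRK2 and RCAN1 to those that rose and PPP2CA to those that fell. By limma-voom 4 fell and 5 rose, beside 217 and 532 of all positions. After median scaling 8 fell and 2 rose, beside 297 and 337 of all positions. Without healthy 3 it was 2 each, beside 132 and 280. In border zone against healthy myocardium 1 rose and 0 fell, beside 5.79% and 0.210% of all positions, with 3 higher and 1 lower at an unadjusted p under 0.05, which held for 21.4% of all positions in either direction. With the pig as a block ATP2B1, CALR and RCAN1 rose there, at adjusted p-values of 0.00559, 0.0479 and 0.0388, and limma-voom called ATP2B1 and CALR. In ischemic against border zone myocardium limma called 0 of the 23, beside 0.168% higher and 0.965% lower of all positions. At an unadjusted p under 0.05 1 was higher and 4 were lower, where 15.6% of all positions lay in either direction, and limma-voom called 1.

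Among genes of the calcium store and its release, 4 of the 6 in the table were tested. CALR, which encodes the calcium-binding chaperone calreticulin, rose to 36.0 ± 10.2 RPKM in ischemic myocardium, against 9.52 ± 4.91 in healthy myocardium (SD, n = 3 each), with an adjusted p of 0.00847 in limma. TMEM38B, which encodes a potassium-permeable channel of the sarcoplasmic reticulum, fell to 0.412 ± 0.0961 RPKM in ischemic myocardium, against 0.926 ± 0.113 in healthy myocardium, with an adjusted p of 0.0254. The TMEM38B call was lost without ischemic 1, ischemic 3 or any healthy library, with adjusted p-values of 0.0574 to 0.0957, and after quantile normalization, at 0.11. SRI and FKBP1A, whose products bind the release channel, did not pass, at adjusted p-values of 0.0772 and 0.858, although SRI passed as higher with the pig as a block, at 0.0347. RYR1 and CASQ1, the release channel and calcium buffer of skeletal muscle, were below the filter, and their cardiac counterparts RYR2 and CASQ2 were not analysed here. The other genes of the pump family in the table, ATP2A1 of fast skeletal muscle and SLN for the pump inhibitor sarcolipin, averaged 0.0131 and 0.0393 RPKM over the 9 libraries and were below the filter too.

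At the plasma membrane 2 of 6 genes in the table were tested, and they moved in opposite directions. ATP2B1, which encodes a calcium pump that exports calcium from the cell, had 2.41, 1.83 and 2.41 RPKM in ischemic samples 1 to 3, against 2.06, 1.51 and 2.04 RPKM in the border zone and 0.712, 0.526 and 0.652 RPKM in healthy samples. Ischemic and border zone values overlap, and both lie above all healthy values. The log2 difference of ATP2B1 was 1.66 ± 0.22 in ischemic against healthy myocardium (adjusted p = 0.00192) and 1.43 ± 0.22 in border zone against healthy myocardium (adjusted p = 0.00936). The call in the border zone was lost in 3 of 17 alternatives, among them without border zone 1 (adjusted p = 0.0567) and without border zone 3 (adjusted p = 0.055). Without healthy 2 the adjusted p lay at 0.05. CACNA2D1, an accessory subunit of the L-type calcium channel, fell to 0.304 ± 0.0989 RPKM in ischemic myocardium, against 1.04 ± 0.252 in healthy myocardium, with an adjusted p of 0.013. That call was lost without healthy 3 (adjusted p = 0.0556) and after quantile normalization (adjusted p = 0.082).

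Upstream of phospholamban, genes of the cAMP and kinase A arm were lower where they passed. PRKAR1A, a regulatory subunit of protein kinase A, fell to 3.28 ± 0.237 RPKM in ischemic myocardium, against 7.70 ± 1.49 in healthy myocardium (adjusted p = 0.00809), with a level of 4.74 ± 0.787 in the border zone. PKIA, an inhibitor of the kinase's catalytic subunit, fell to 0.546 ± 0.381 RPKM in ischemic myocardium, against 2.78 ± 0.882 in healthy myocardium (adjusted p = 0.0115). The other 6 genes of kinase A, its anchors and phosphatases did not pass, with PPP2CA at an adjusted p of 0.0748 and AKAP9 at 0.0854, and PPP2CA passed as lower with the pig as a block, at 0.0286. ADRB1, the beta-1 adrenergic receptor gene, held 1 read over the 3 ischemic libraries, against 48 reads in the border zone and 45 in healthy myocardium. Relative to library totals this is 14.7-fold lower than healthy, with an exact 95% counting interval of 2.52 to 595. The fitted log2 difference of -3.54 ± 0.82 for ADRB1 (adjusted p = 0.0166) depends on the pseudocount, and the call was lost with limma-voom (adjusted p = 0.0567) and without ischemic 3, healthy 2 or healthy 3 (adjusted p = 0.0517, 0.0532 and 0.0575). GRK2, a kinase that desensitizes the receptor, did not pass, at an adjusted p of 0.0577, but passed as higher with the pig as a block (adjusted p = 0.0323) and with limma-voom (adjusted p = 0.0427). The stimulatory G protein gene GNAS did not pass, at an adjusted p of 0.91.

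None of the 5 tested genes for calmodulin, its kinases and the phosphatase calcineurin passed in ischemic against healthy myocardium in limma. Of these, 2 were higher at an unadjusted p under 0.05, which held for 40.5% of all positions in either direction. CAMK2G, another gene of the same kinase family as CAMK2D, averaged 0.773 ± 0.154 RPKM in ischemic and 0.968 ± 0.0914 in healthy myocardium (SD, n = 3 each), with a log2 difference of -0.30 ± 0.21 and an adjusted p of 0.31. RCAN1, an inhibitor of calcineurin, had a log2 difference of 1.38 with an adjusted p of 0.0685, and PPP3CA, the catalytic subunit of calcineurin, one of 0.62 with 0.12. With the pig as a block RCAN1 passed at an adjusted p of 0.00415, and with limma-voom RCAN1 and PPP3CA passed at 0.0442 and 0.0141. PDE4A, the single other phosphodiesterase gene that passed the filter, had a log2 difference of -0.44 with an adjusted p of 0.486.

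**Figure D5:**
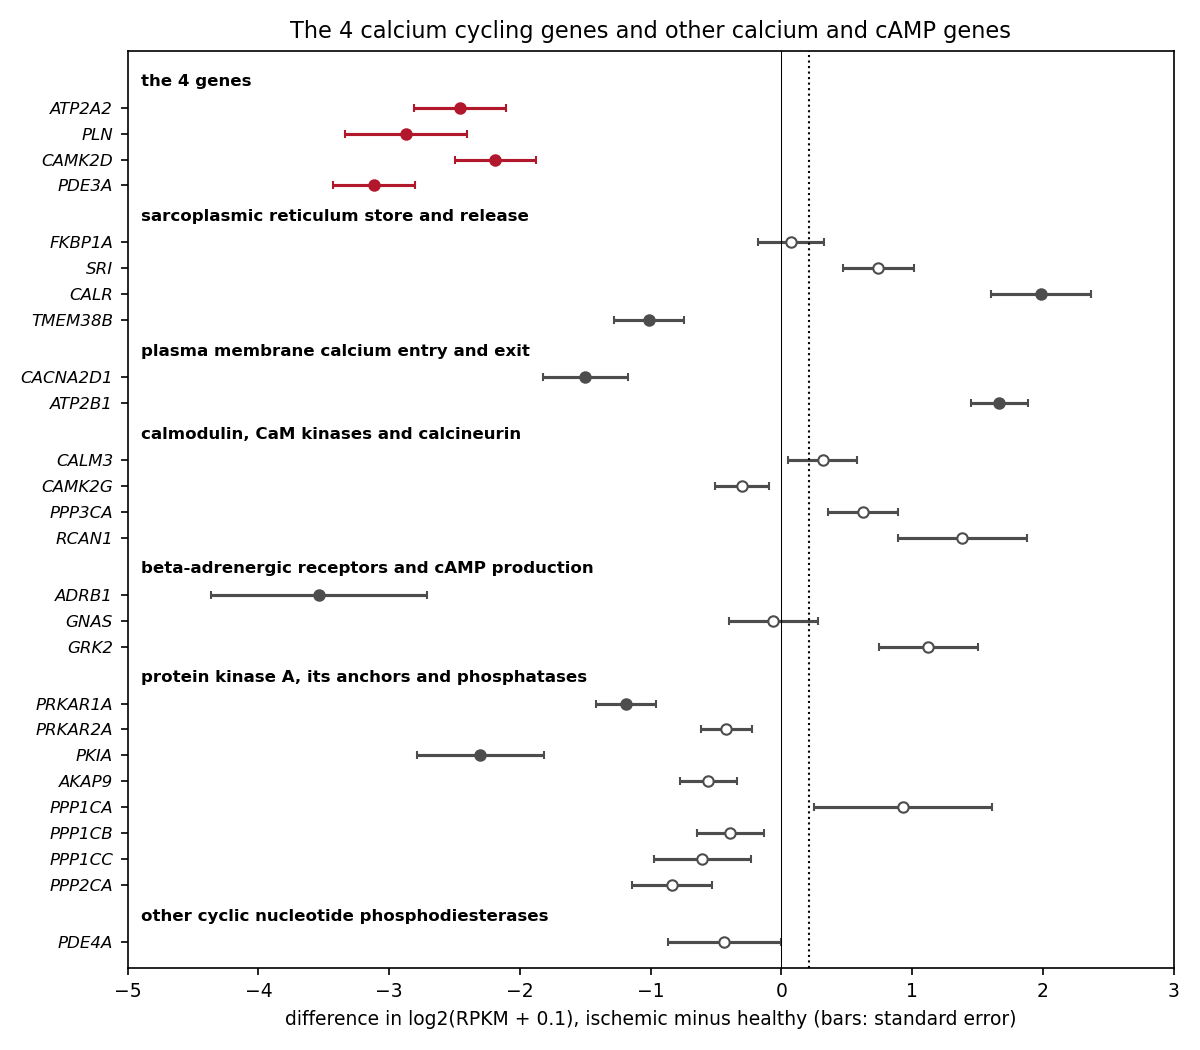
Log2 differences between ischemic and healthy myocardium with standard errors from limma for the 4 genes and the tested genes of the pathway, 1 of the 23 left out, grouped by role; filled points passed an adjusted p of 0.05, and the dotted line is the median of all positions, 0.21. The 4 genes lie between -3.11 and -2.19, and of the others CALR at 1.98 and ATP2B1 at 1.66 rose while PRKAR1A, PKIA, CACNA2D1, TMEM38B and ADRB1 fell.

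The genes whose log2 levels were most like those of the 4 over the 9 libraries were sought among 1987 genes, by Pearson's r, as a description in which the libraries share zones and pigs. ATP2A2 was closest to ZFPM2, a cofactor of GATA factors (r = 0.997), and then to NCEH1, CAMK2D, GATA6 and CHCHD3 (r = 0.988 to 0.993). CAMK2D was closest to CLIC5 and to MYOT, a Z-disc protein gene (both r = 0.994), followed by RXRG, DMD for dystrophin and PCDH7, with ATP2A2 at rank 6 (r = 0.991). PDE3A was closest to the Z-disc gene ACTN2 (r = 0.993), then to CAMK2D, the cardiac coactivator gene MYOCD, ACACB and the fatty acid transporter gene CD36 (r = 0.984 to 0.986). PLN was closest to ITGB6 (r = 0.985), then to CAMK2D, RXRG, LAMC1 and the Z-disc gene MYOZ2 (r = 0.973 to 0.980). CAMK2D is the one gene of the 4 that stood among the 5 nearest to each of the other 3. Between the 4 genes r lay between 0.969 and 0.991, and other genes often stood nearer. From ATP2A2, PDE3A ranked 17 and PLN 24, and from PLN, PDE3A ranked 6 and ATP2A2 9. From CAMK2D, PDE3A ranked 8 and PLN 17, and from PDE3A, ATP2A2 ranked 14 and PLN 20.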

How the data were processed

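GRO-seq was done on 3 zones of 3 pigs, with 15 PCR cycles, per the labels' protocols. Reads were aligned with Bowtie to susScr3, per the submitters' processing notes. For the Bowtie version, counting program, strand setting and treatment of duplicates no source used here gives a value. The authors deposited RPKM over each annotated span, introns included, per the file headers. Multiplied by span and library total, 100% of nonzero values were whole reads within 0.01, which gave the depths. Counting intervals cover counting error only, since PCR copies are not independent molecules.

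Names came from a Sscrofa11.1 RefSeq table. Values were tested as log2(RPKM + 0.1) in limma 3.58.1 (R 4.3.3) over the 2384 positions whose mean reached 0.5 RPKM, with zone as the only term, eBayes with trend and robust settings, 2-sided, and Benjamini-Hochberg adjustment per comparison at 0.05. The procedure was also run on simulated reads, drawn independently for each library with a common spread and no pig effect. That run does not test the calls made here. Plots and sums used Python 3.11.15 with matplotlib 3.10.9, scipy 1.17.1, pandas 2.3.3 and numpy 2.4.6. Alternatives were other pseudocounts, filters and scalings, the pig as a block, pairs of zones alone, limma-voom on recovered reads, and each library left out.

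Replicate numbers mark the same pig, per the labels, so they pair the samples. Deviations from the zone mean correlated at -0.0367 to 0.179 within a pig and at -0.156 to 0.0816 between pigs. The 4 genes, the pathway lists and the marker lists were chosen with earlier results of these data known. Of each pathway list, genes past the threshold and otherwise up to 4 with the smallest adjusted p were named, and the 5 nearest genes by Pearson's r for each of the 4 genes. The values of 1 pathway gene that the rule names are not reported here.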

Additional observations from a re-analysis of the deposited data

How the results depend on the processing

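In ischemic against healthy myocardium the 4 genes kept their direction and their call under every alternative run. The pseudocount set the size: with a pseudocount of 1 PDE3A differed by -2.48 on the log2 scale, and PKIA, CACNA2D1, TMEM38B and ADRB1 by -1.30, -0.64, -0.45 and -1.40. Leaving out 1 library at a time gave -2.77 to -2.29 for ATP2A2, -3.43 to -2.53 for PLN, -2.47 to -2.02 for CAMK2D and -3.44 to -2.95 for PDE3A. Of all positions 659 were called, 346 with a mean of at least 2 RPKM, and 362 to 698 with 1 library left out, with 362 without healthy 2 and 412 without healthy 3.

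In border zone against healthy myocardium PDE3A passed with a mean of at least 2 RPKM (-1.26), with the 2 zones alone (-1.26), after quantile normalization (-1.61) and with limma-voom (-1.31), and ATP2A2 and PLN with limma-voom (-1.09 and -1.20). Without ischemic replicate 2, PDE3A and PLN passed at adjusted p-values of 0.0202 and 0.0395. One library left out gave -1.42 to -1.17 for PDE3A and -1.37 to -1.06 for PLN. The 143 calls over all positions became 48 with a pseudocount of 1, 95 without a filter, 76 with a mean of at least 2 RPKM, 90 after median scaling (77 higher, 13 lower), 85 after quantile normalization, 296 with limma-voom and 36 to 174 with 1 library left out.

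In ischemic against border zone myocardium the PDE3A call was lost with a pseudocount of 1 (-1.36), without a filter (-1.85), after median scaling (-1.80) or quantile normalization (-1.87) and with the 2 zones alone (-1.85); the adjusted p ranged over these from 0.0614 to 0.137, and the cause was not tested. With limma-voom ATP2A2 (-1.39), PLN (-1.75) and CAMK2D (-1.44) passed. One library left out gave -2.17 to -1.69 for PDE3A, -2.23 to -1.32 for PLN and -1.68 to -1.17 for CAMK2D. The 27 calls became 10 with a pseudocount of 1, 3 without a filter, 8 after median scaling, 5 after quantile normalization, 1 with the 2 zones alone, 92 with limma-voom and 0 to 39 with 1 library left out.

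With the pig as a replicate block the values stayed as fitted, at -1.08 for ATP2A2 and -1.26 for PDE3A in border zone against healthy myocardium, which then passed, and 752, 205 and 29 positions were called in the 3 comparisons. The block changed no other call of the 4 genes. Joining both ATP2A2 positions, an alternative chosen after seeing the data as were those on pathway and marker genes, gave -2.41 in ischemic and -1.05 in border zone against healthy myocardium, and -1.36 between ischemic and border zone. Ischemic libraries were the shallowest, which limits low genes there most.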
